A study of Mus musculus with 6 samples.

Results

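Oxidative phosphorylation (OXPHOS) is carried out by complexes of the mitochondrial inner membrane whose subunits are, for the most part, encoded in the nucleus. The transcripts described here are those of the nuclear-encoded subunits of complexes I to V, chosen by gene name: Nduf genes with the letters a, b, c, s or v and a number, *Sdha* to *Sdhd*, all Uqcr genes, *Cyc1*, Cox4 to Cox8 genes and Atp5 genes. Of 51499 loci in the count table, 89 matched, 6 of them pseudogene names that were dropped, which left 83 genes. The choice goes by names alone, made with earlier results of these data known. Of the 83 genes, 35 belong to complex I, 4 to complex II, 9 to complex III, 19 to complex IV and 16 to complex V, with *Ndufa4* and *Ndufa4l2* placed in complex IV. The libraries are 3 of WT MEFs (fibroblasts grown from mouse embryos) transfected with Scr siRNA, a control siRNA, and 3 of WT MEFs transfected with Yme1l siRNA, each collected after 72 h. No further treatment, strain or animal age is given in the labels, and the methods derive the WT MEFs from Yme1l loxP/loxP animals. The sample labels describe the MEFs as 3T3 immortalized, whereas the methods state that SV40 large T antigen was used and that the WT cells were grown from individual clones, so that a group may stand for 1 clone.

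Complex I oxidizes NADH and complex II oxidizes succinate, both passing electrons to coenzyme Q. Complex III hands these electrons to cytochrome c and complex IV transfers them to oxygen, while complexes I, III and IV pump protons across the inner membrane. Complex V, the ATP synthase, lets the protons back and makes ATP. YME1L is a protease of the same membrane, known to degrade or process proteins of the intermembrane space and inner membrane, among them subunits that were not built into a complex. Since the measurements are of transcripts in pooled cells, fewer cells of a type and less RNA per cell cannot be told apart, and nothing is said of protein levels.

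The targeted transcript, *Yme1l1*, stood at 171 CPM in each Scr library (CPM, counts scaled to the effective library size). It stood at 31.6, 23.4 and 45.04 CPM in the Yme1l siRNA libraries, a log2 fold change of -2.36 ± 0.20 (standard error, SE; n = 3 per group; adjusted p = 3.87e-05, edgeR's quasi-likelihood test with Benjamini-Hochberg adjustment over 14499 loci). The libraries held 37260605 to 45205207 counts. Fibroblast markers were abundant, but their summed level was 33540 to 40640 CPM in Scr libraries and 17980 to 22390 CPM in Yme1l siRNA libraries, and 6 of the 7 tested were lower in the latter. *Thy1*, a further fibroblast marker, had at most 1 count in a library. Markers of other cell types were low: the epithelial list summed to 0.0924 to 0.166 CPM in Scr and 0.807 to 1.33 CPM in Yme1l siRNA libraries, the endothelial list to 0.450 to 0.720 and 1.43 to 1.92 CPM, and *Sox10* and *Myod1* were at 0 throughout. The blood list summed to 42.7 to 53.0 and 25.7 to 58.2 CPM, nearly all of it *Cd68*. The part that these differences have in the results below was not tested.

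Of the 83 subunit genes, 77 passed the filter on low counts and were tested. In the Yme1l siRNA libraries, 16 were higher and 17 were lower at an adjusted p under 0.05, so that 42.9% of those tested were called. Over all loci tested, 58.0% were called, 28.4% as higher and 29.6% as lower. The changes were small: the median log2 fold change of the subunit genes was -0.01 and the median of its size was 0.18, compared with 0.01 and 0.42 over all loci. A change of at least 1.5-fold that also passed the threshold was seen for 7 subunit genes (9.09%), compared with 31.8% of all loci. Among transcripts with a mean of at least 20 CPM, 4 of 72 subunit genes (5.56%) and 26.2% of 7976 loci changed by that much. The subunits that changed by 1.5-fold or more were *Cyc1*, *Ndufa12* and *Cox6a2*, which rose, and *Cox5a*, *Atp5s*, *Ndufa4l2* and *Ndufv3*, which fell. With the counts of a near-identical copy added, *Ndufa12* was at 0.54 on the log2 scale, which is under 1.5-fold. The 3 libraries of one group lay wholly above or below those of the other for 46 subunit genes (59.7%), against a background of 65.4% of all loci.

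**Figure D1:**
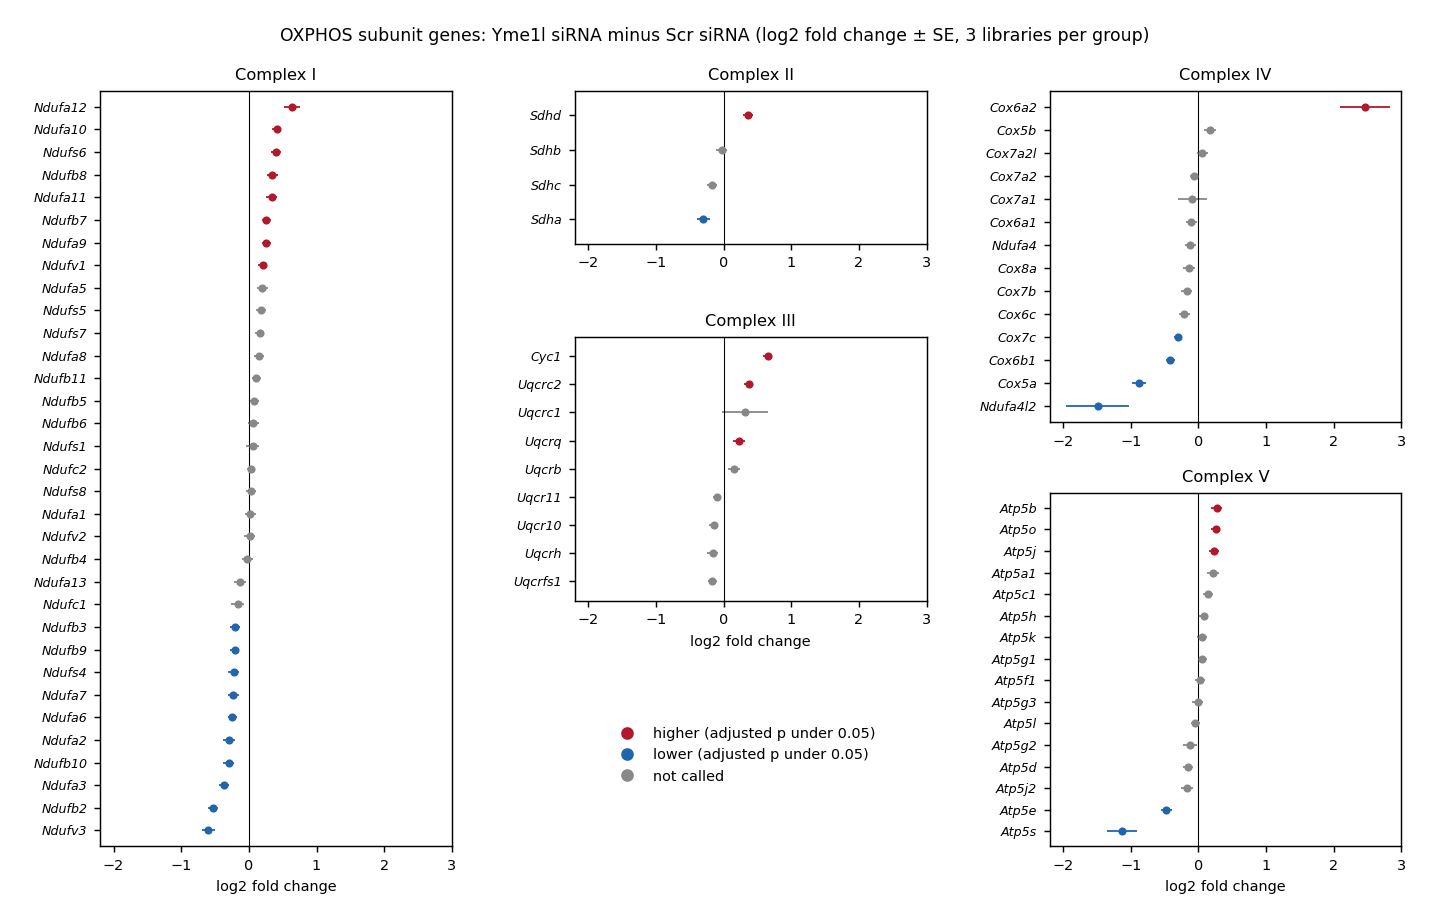
Log2 fold change of the tested subunit genes, 1 of which is not drawn (x axis, Yme1l siRNA minus Scr siRNA, bars show the SE, 3 libraries per group), sorted within each complex. Of the 16 genes past the threshold to the right of 0, 8 belong to complex I. Of the 17 to the left of 0, 10 belong to complex I and 0 to complex III. Of the 77 genes, 70 did not pass the threshold with a change of 1.5-fold or more.

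**Figure D2:**
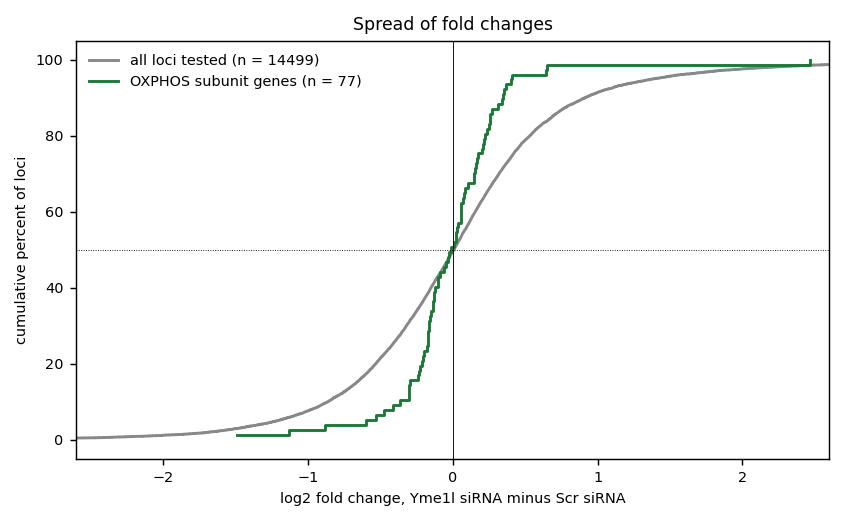
Cumulative percent of loci (y axis) at or below a log2 fold change (x axis, drawn from -2.6 to 2.6, with a few loci outside) for the 77 subunit genes and the 14499 loci tested. The curves cross near 0, and the curve of the subunit genes is steeper, with lower and upper quartiles of -0.17 and 0.18 compared with -0.42 and 0.42 for all loci.

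The split between rises and falls depended on a joint correction for length and GC content. The subunit transcripts are short, with a median of 1231 bases compared with 3174 over the loci tested. When trends of each library with both properties were removed together, 14 subunit genes were higher and 27 lower, and their median moved to -0.11. In that fit, 53.2% of the subunit genes and 58.4% of all loci were called. The split also rested on single libraries: without the second Scr library, or without the first Yme1l siRNA library, 14 were higher and 8 lower. These fits each called 28.6% of the subunit genes, and 48.7% and 48.0% of all loci. Of the 33 called genes, 20 kept their call in all 6 fits that left out a library, 12 of them higher and 8 lower, and no called gene was called in the opposite direction under any alternative.

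Transcripts of complex I moved in both directions. Of 35 genes, 34 were tested, of which 8 were higher and 10 were lower (52.9% called, against 58.0% of all loci). The median log2 fold change was 0.03. The count of falls dropped to 3 without the second Scr or the first Yme1l siRNA library and to 6 without the second Yme1l siRNA library, and with length and GC trends removed the median turned to -0.07. Complex I consists of core subunits, which bind the flavin and the iron-sulfur clusters, and of accessory subunits around them. All but 1 of the calls concerned accessory subunits, which made up 28 of the 34 genes tested. Of these 28, 7 were higher and 10 lower (60.7% called, near the 58.0% of all loci). Their log2 fold changes ran from -0.60 to 0.64. Of the 6 core genes tested, only *Ndufv1* was called.

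Among the accessory subunits that rose, *Ndufa12* stood at 33.1, 33.4 and 30.0 CPM in the Scr libraries and at 44.0, 46.5 and 59.9 CPM in the Yme1l siRNA libraries. The groups did not overlap, and the third Yme1l siRNA library was the highest (log2 fold change 0.64 ± 0.12, adjusted p = 0.00182). *Ndufa12* (chr10:94198720-94221443, GRCm38) has a processed pseudogene copy, *Gm15920*, which matches it over 403 bases with 99.5% identity and held 844, 655 and 766 counts in Scr and 1220, 1198 and 652 counts in Yme1l siRNA libraries. The copy was thus lowest in the library in which *Ndufa12* was highest. With the counts of gene and copy added, the levels were 52.6, 51.6 and 48.1 CPM in Scr and 71.5, 74.1 and 75.4 CPM in Yme1l siRNA libraries, and the log2 fold change was 0.54 ± 0.07 (adjusted p = 2.02e-04).

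*Ndufa10*, an accessory subunit of the membrane arm, stood at 73.8, 72.9 and 70.4 CPM in Scr and at 90.95, 99.5 and 98.5 CPM in Yme1l siRNA libraries (0.41 ± 0.07, adjusted p = 9.56e-04). *Ndufs6*, a zinc-binding subunit near the matrix tip, was at 34.8, 34.6 and 33.4 CPM and at 43.4, 48.3 and 43.7 CPM (0.40 ± 0.07, adjusted p = 0.00131). For both genes the lowest Yme1l siRNA library lay above the highest Scr library by more than the whole spread of the Scr libraries. Smaller rises were called for *Ndufb8* (0.35), *Ndufa11* (0.34), *Ndufb7* (0.26) and *Ndufa9* (0.26). The locus of *Ndufb8* also carries the names *Sec31b* and *Gm20538*, so its counts cannot be given to one of them.

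*Ndufv3*, an accessory subunit next to the flavin-bearing core, was the complex I transcript with the largest fall. Its levels were 55.2, 51.4 and 44.8 CPM in the Scr libraries and 31.3, 36.4 and 32.2 CPM in the Yme1l siRNA libraries. All Yme1l siRNA libraries lay below the lowest Scr library (-0.60 ± 0.10, adjusted p = 8.48e-04). *Ndufb2* was at 38.0, 38.8 and 38.6 CPM and at 25.4, 26.4 and 28.1 CPM (-0.53 ± 0.07, adjusted p = 2.94e-04), at a locus that it shares with *Adck2* and *Gm42420*. *Ndufa3* fell by 0.36 on the log2 scale. The remaining falls, of *Ndufb10*, *Ndufa2*, *Ndufa6*, *Ndufa7*, *Ndufs4*, *Ndufb9* and *Ndufb3*, were between 0.20 and 0.30 on that scale, and each lost its call in 2 to 5 of the 6 fits that left out a library. The locus of *Ndufb9* also carries the names *Rnf139* and AC158777.2, so that this fall cannot be given to one of them.

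The core subunits of complex I given here had log2 fold changes between 0.01 and 0.21. *Ndufv1*, which binds NADH and the flavin, stood at 80.4, 88.4 and 85.1 CPM in Scr and at 96.7, 100.3 and 96.0 CPM in Yme1l siRNA libraries (0.21 ± 0.07, adjusted p = 0.0279). The groups did not overlap, but 4 of the 6 fits with 5 libraries did not call it, with adjusted p of up to 0.135. Its partner *Ndufv2* was at 111, 121 and 106 CPM and at 111, 123 and 108 CPM, almost the same library by library (0.01 ± 0.08, adjusted p = 0.919). *Ndufs1*, which carries several iron-sulfur clusters, ranged from 102 to 104 CPM in Scr and from 95.6 to 122 CPM in Yme1l siRNA libraries (0.06 ± 0.09, adjusted p = 0.630). *Ndufs7*, which carries the last iron-sulfur cluster before coenzyme Q, was at 45.4, 49.9 and 47.5 CPM and at 51.1, 53.0 and 55.3 CPM (0.16 ± 0.07, adjusted p = 0.0696). Its groups did not overlap, although the gene did not pass the threshold. *Ndufs8* ranged from 28.1 to 30.7 CPM and from 29.1 to 32.7 CPM (0.03 ± 0.08, adjusted p = 0.763).

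*Ndufs3* (chr2:90894634-90904827, GRCm38), another core subunit, is listed at 0 counts in all 6 libraries. Its neighbours *Kbtbd4*, which overlaps it, and *C1qtnf4* are listed at 0 as well, and a processed pseudogene of it, *Gm12251* (98.6% identity over 792 bases), held 168 to 237 counts in Scr and 226 to 262 counts in Yme1l siRNA libraries. A count of 0 for a subunit that complex I cannot be built without is given as a listed value and not as a level.

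In complex II, which has 4 nuclear-encoded subunits and no mitochondrial one, transcripts diverged. *Sdha*, the flavin-bearing subunit that oxidizes succinate, stood at 252, 258 and 269 CPM in Scr and at 210, 185 and 237 CPM in Yme1l siRNA libraries. The third Yme1l siRNA library lay closest to the Scr group (-0.30 ± 0.10, adjusted p = 0.0244), and 4 of the 6 fits with 5 libraries did not call it. *Sdhb*, the iron-sulfur subunit bound to *Sdha*, ranged from 59.5 to 60.7 CPM and from 55.0 to 65.7 CPM (-0.03 ± 0.08, adjusted p = 0.766). Of the membrane anchors, *Sdhd* stood at 85.0, 85.8 and 77.5 CPM and at 103.5, 110.6 and 103.7 CPM (0.36 ± 0.07, adjusted p = 0.00292), with no overlap between groups and the call kept without any single library. The other anchor, *Sdhc*, was at 74.2, 74.3 and 67.2 CPM and at 62.4, 62.4 and 67.0 CPM (-0.17 ± 0.07, adjusted p = 0.0666). The partners *Sdhc* and *Sdhd* thus had log2 fold changes of opposite sign, of which that of *Sdhd* passed the threshold.

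In complex III, 3 of 9 tested transcripts were higher and 0 were lower by edgeR's quasi-likelihood test (33.3% called, against 58.0% of all loci). At an unadjusted p under 0.05, 3 were higher and 1 lower. DESeq2 and limma-voom also called 3 higher and 0 lower, whereas 2 were higher and 4 lower with the length and GC trends removed. *Cyc1*, cytochrome c1, is the heme-bearing subunit that passes electrons to cytochrome c. Its levels were 237, 252 and 251 CPM in Scr libraries and 375, 381 and 406 CPM in Yme1l siRNA libraries. The groups were far apart, at 247 ± 8.57 and 388 ± 16.7 CPM (SD, n = 3), a rise of 57.1% (0.65 ± 0.07, adjusted p = 9.36e-05). No exon of *Cyc1* (chr15:76343523-76346260, GRCm38) overlaps another gene, and no near-identical copy was found. Leaving out any library kept its log2 fold change between 0.61 and 0.68.

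*Uqcrc2*, a core subunit, stood at 117, 126 and 125 CPM in Scr and at 158, 158 and 159 CPM in Yme1l siRNA libraries (0.37 ± 0.06, adjusted p = 0.00138). The Yme1l siRNA libraries were almost equal, and the groups did not overlap. *Uqcrq*, a small subunit, was at 63.0, 70.1 and 70.8 CPM and at 73.7, 87.3 and 77.3 CPM (0.23 ± 0.09, adjusted p = 0.0490), a call that 5 of the 6 fits with a library left out did not make. *Uqcrfs1*, the Rieske iron-sulfur protein and the other catalytic subunit encoded in the nucleus, was at 64.7, 70.9 and 69.4 CPM and at 58.2, 62.0 and 61.8 CPM (-0.17 ± 0.07, adjusted p = 0.0531). The transcripts of the 2 nuclear-encoded catalytic subunits of complex III therefore had log2 fold changes of 0.65 and -0.17, the first past the threshold. *Uqcr10*, *Uqcr11*, *Uqcrh* and *Uqcrb* had log2 fold changes of -0.17 to 0.15 and were not called.

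*Uqcrc1* (chr9:108936633-108949623, GRCm38), the partner of *Uqcrc2*, is listed at 19, 14 and 22 counts in Scr libraries and at 34, 24 and 15 counts in Yme1l siRNA libraries (0.31 ± 0.34, adjusted p = 0.461). The groups overlapped. Per kb of the longest annotated transcript its level was 0.182 ± 0.0272 CPM in Scr libraries, compared with 64.7 ± 2.57 CPM per kb for *Uqcrc2* (SD, n = 3), although both subunits are needed for the complex. The gene has no near-identical copy among the annotated transcripts, and *Col7a1*, which lies 3963 bases away on the same strand, held 416 to 1172 counts.

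In complex IV, 1 of 14 tested transcripts was higher and 4 were lower (35.7% called, against 58.0% of all loci). The share called as lower was 28.6%, near the 29.6% of all loci. The median log2 fold change was -0.13, and 11 of the 14 lay below 0, compared with 7178 of all 14499 loci. With length and GC trends removed, 8 were lower and the median was -0.24. *Cox5a*, a subunit on the matrix side, had the largest fall among the abundant transcripts. It stood at 77.8, 85.9 and 76.4 CPM in Scr libraries and at 41.0, 39.0 and 49.95 CPM in Yme1l siRNA libraries. The highest Yme1l siRNA library lay well below the lowest Scr library (80.02 ± 5.13 and 43.3 ± 5.83 CPM, SD, n = 3, -0.89 ± 0.10, adjusted p = 1.52e-04). *Cox5a* (chr9:57521274-57532426, GRCm38) shares 12.8% of its exon bases with *Gm26631*, which held at most 4 counts in a library. Its log2 fold change stayed between -1.003 and -0.81 when a library was left out. *Cox5b*, the zinc-binding subunit, ranged from 85.3 to 96.4 CPM and from 93.5 to 113 CPM (0.17 ± 0.09, adjusted p = 0.153).

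*Cox6b1*, a subunit on the side of the intermembrane space, stood at 97.3, 100.8 and 99.4 CPM in Scr and at 72.3, 72.6 and 78.4 CPM in Yme1l siRNA libraries (-0.41 ± 0.07, adjusted p = 8.51e-04). *Cox7c* was at 45.9, 46.6 and 46.3 CPM and at 36.3, 36.6 and 39.7 CPM (-0.30 ± 0.07, adjusted p = 0.00396). Both groups were tight and did not overlap, and both calls were kept without any single library. The other ubiquitous subunits, *Cox6c*, *Cox7b*, *Cox8a*, *Ndufa4*, *Cox6a1* and *Cox7a2*, had log2 fold changes between -0.21 and -0.06 and were not called. *Cox7a2l*, which joins complexes III and IV in supercomplexes, was level (0.06 ± 0.08, adjusted p = 0.583). *Cox4i1* was not analysed here.

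In complex V, 3 of 16 transcripts were higher and 2 were lower (31.25% called, against 58.0% of all loci). The median log2 fold change was 0.04. Without the first Scr library, 1 was higher. *Atp5b*, the catalytic β-subunit of the F1 head, was the most abundant of all subunit transcripts by counts and per kb. It stood at 1234, 1287 and 1379 CPM in Scr and at 1563, 1485 and 1652 CPM in Yme1l siRNA libraries (0.27 ± 0.08, adjusted p = 0.0208). The groups did not overlap, and 3 of the 6 fits with 5 libraries did not call it. *Atp5a1*, the α-subunit of the head, was at 746, 761 and 776 CPM and at 858, 817 and 973 CPM (0.21 ± 0.08, adjusted p = 0.0562), and *Atp5c1*, the γ-subunit of the central stalk, at 219, 232 and 221 CPM and at 243, 236 and 263 CPM (0.14 ± 0.07, adjusted p = 0.110). In each of these 3 genes every Yme1l siRNA library was above every Scr library, and only *Atp5b* passed the threshold. With DESeq2, *Atp5a1* passed it as well (adjusted p = 0.0290).

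*Atp5e*, the ε-subunit of the central stalk, moved the other way. Its levels were 54.2, 61.1 and 51.5 CPM in Scr and 38.0, 40.8 and 41.1 CPM in Yme1l siRNA libraries, without overlap (-0.48 ± 0.08, adjusted p = 0.00111). *Atp5d*, the δ-subunit next to it, was at 152 to 167 CPM and at 139 to 153 CPM and was not called (-0.16 ± 0.07, adjusted p = 0.0977). In the peripheral stalk, which holds the head in place, *Atp5o* was at 146, 150 and 145 CPM and at 170, 173 and 182 CPM (0.25 ± 0.06, adjusted p = 0.00927), at a locus joined with *Donson*. *Atp5j* (0.24 ± 0.07, adjusted p = 0.0239) was called as well, at 107 to 119 CPM in Scr and 126 to 139 CPM in Yme1l siRNA libraries, but 3 of the 6 fits with 5 libraries did not call it, with adjusted p of up to 0.0881, nor did the fit with length and GC trends removed. *Atp5f1* and *Atp5h*, the other stalk subunits, had log2 fold changes of 0.02 and 0.08 and were not called. *Atp5s*, a low transcript once counted as a coupling factor of the ATP synthase, was at 4.53, 7.95 and 5.38 CPM and at 2.55, 2.69 and 2.89 CPM (-1.13 ± 0.22, adjusted p = 0.00235), without overlap.

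**Figure D3:**
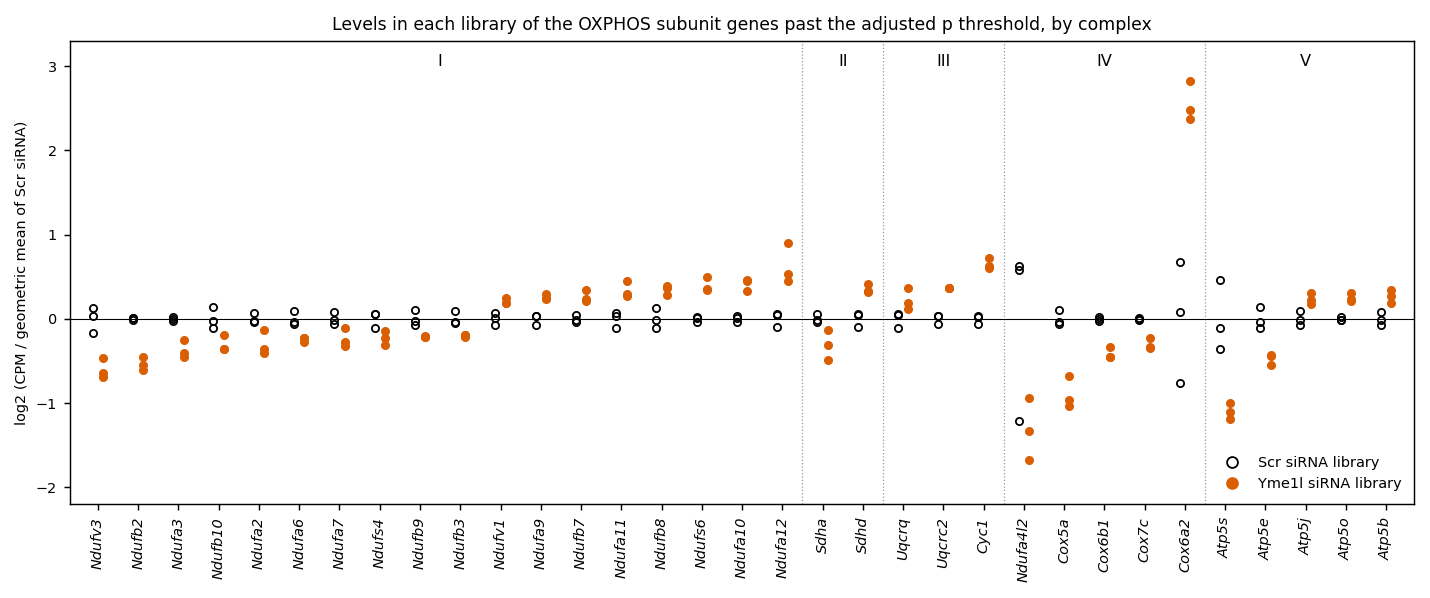
Level of each of the 33 called subunit genes in each library, as log2 of CPM over the geometric mean of the Scr libraries (y axis), grouped by complex, with open circles for Scr and filled circles for Yme1l siRNA. The groups are apart for 32 of the 33 genes, and in *Ndufa4l2* the third Scr library lies among the Yme1l siRNA libraries.

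Several subunits have paralogs that are used in other tissues, and in these fibroblasts the paralogs of complex IV were rare. Per kb of the longest annotated transcript, *Cox6a1* stood at 284 ± 7.17 CPM in Scr and *Cox6a2*, the form of heart and skeletal muscle, at 0.249 ± 0.116 CPM. *Cox6a2* held 4, 9 and 7 counts in Scr libraries and 49, 38 and 34 counts in Yme1l siRNA libraries. It was the largest rise of any subunit gene (2.47 ± 0.37, adjusted p = 5.81e-04), at a level that reached only about 1 CPM. *Cox6a1* was at 171 to 179 CPM in Scr and 152 to 180 CPM in Yme1l siRNA libraries (-0.11 ± 0.08, adjusted p = 0.288). More loci had a count in the Yme1l siRNA libraries (19538 to 20284) than in the Scr libraries (18834 to 19198). Among other low transcripts, *Krt8* (4.45) and *Kdr* (2.57) were higher on the log2 scale as well, while *Pecam1* and *Gfap* were not called. Of the muscle markers, *Des* stood at 3.303, 3.77 and 3.602 CPM in Scr and at 3.359, 3.359 and 2.37 CPM in Yme1l siRNA libraries and was not called. *Myh3* had 0 counts in each Scr library and 3, 6 and 1 counts in the Yme1l siRNA libraries, and *Myod1* was at 0 throughout. Their part in the rise of *Cox6a2* was not tested.

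*Ndufa4l2*, a paralog of *Ndufa4* known to be induced in low oxygen, held 92, 74 and 25 counts in Scr and 19, 31 and 23 counts in Yme1l siRNA libraries. The third Scr library lay inside the range of the Yme1l siRNA libraries. The fall (-1.49 ± 0.47, adjusted p = 0.0236) was not called by limma-voom (adjusted p = 0.0758) or in 3 of the 6 fits that left out a library. *Ndufa4* itself was at 136 to 162 CPM and at 132 to 142 CPM (-0.12 ± 0.08, adjusted p = 0.221). *Cox7a1*, the muscle form, was level at 1.71 to 2.22 CPM and 1.64 to 2.28 CPM (-0.09 ± 0.21, adjusted p = 0.731), and *Cox7a2*, its ubiquitous form, at 74.5 to 80.2 CPM and 72.3 to 78.1 CPM (-0.06 ± 0.07, adjusted p = 0.466). Of the rest, *Cox8b* and *Cox8c* were at 0 in every library, *Cox4i2* and *Cox6b2* had at most 1 count, and *Cox7b2* had 0 counts in each Scr library and 3, 10 and 2 counts in the Yme1l siRNA libraries. These 5 genes and *Ndufs3* are the 6 that were not tested.

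The c-ring of complex V is built from 1 mature protein encoded by 3 genes. Per kb, *Atp5g2* stood at 295 ± 26.7 CPM, *Atp5g3* at 222 ± 18.8 CPM and *Atp5g1* at 15.6 ± 0.515 CPM in Scr libraries (SD, n = 3), and at 270 ± 35.9, 220 ± 8.08 and 16.2 ± 0.595 CPM in Yme1l siRNA libraries. By edgeR, 0 of the 3 were called, and 0 had an unadjusted p under 0.05, with log2 fold changes of -0.13, -0.01 and 0.06 and adjusted p of 0.343, 0.909 and 0.482. DESeq2 and limma-voom called 0 of them as well. Without the third Yme1l siRNA library, however, *Atp5g2* was called as lower. The order of the genes was the same in both groups. A pseudogene copy of *Atp5g1*, *Gm10039*, held 14.2% of the counts of gene and copy together, and with these added the log2 fold change was 0.07. The longest annotated transcript stands in for the one expressed, so the distance of *Atp5g1* from the others depends on that choice.

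**Figure D4:**
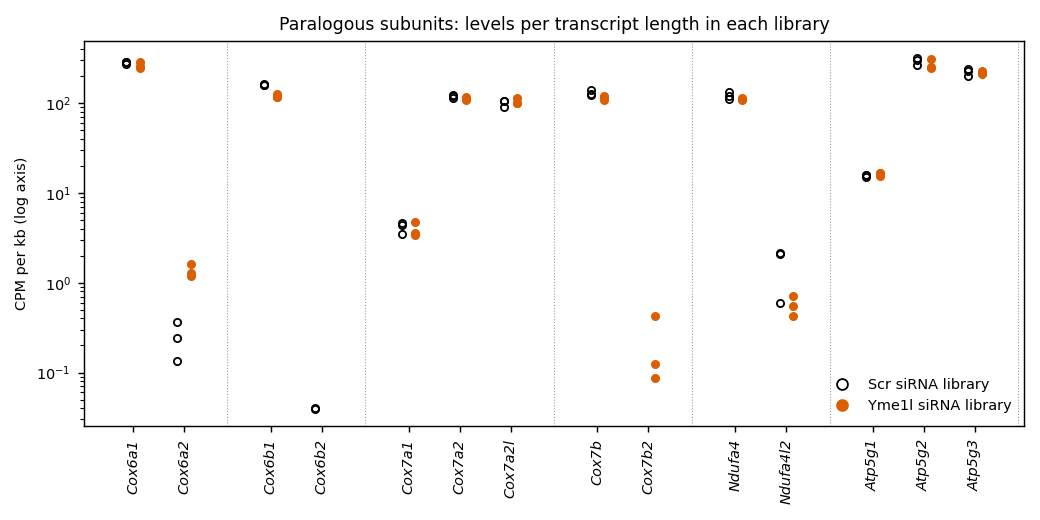
CPM per kb of the longest annotated transcript (log axis) in each library for groups of paralogous subunits, with open circles for Scr and filled circles for Yme1l siRNA. Libraries at 0 are not drawn, which leaves out 1 Scr and all Yme1l siRNA libraries of *Cox6b2* and all Scr libraries of *Cox7b2*. *Cox6a2*, *Cox7a1* and *Ndufa4l2* lie far below *Cox6a1*, *Cox7a2* and *Ndufa4* in both groups.

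Near-identical copies were found for 17 of the 83 genes and held over 5% of the summed counts for 7 of them. Adding the copies changed no call. Exons are shared with a gene on the other strand for 25 subunit genes. The library kit marks strand, but the counting program and its strand setting are not given in the sources used here. An example is *Atp5j*, which shares 12.7% of its exon bases with *Gabpa*, whose counts were 60.2% of its own. *Atp5j* was higher and *Gabpa* was lower in the Yme1l siRNA libraries. For *Ndufb11* with *Rbm10* the partner's counts were 130% of the subunit's, and for *Ndufb5* with *Mrpl47* 46.3%. Neither of these subunits was called. Whether reads of the other strand entered the counts was not tested.

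Promoters of OXPHOS genes are known for sites of NRF1, of the ETS factor GABP, of YY1 and of estrogen-related receptors (ERR). RefSeq promoter sequences (GRCm38.p6, 250 bases before to 50 after the start) were matched for 68 of the 83 genes and were searched on both strands for GCGCANGCG (NRF1), CCGGAAGT (ETS), AAGATGGC (YY1) and TCAAGGTCA (ERR). For each of the 68 genes, only the first promoter listed was used. The share over all promoters counts every promoter listed, of genes expressed here or not, and was not matched for GC content. The NRF1 letters were in 19 of the 68 promoters (27.9%) and in 6.25% of all 32851 promoters, and those of YY1 in 9 (13.2%) and in 2.75%. The ETS letters were in 5 (7.35%) and in 3.89%, and the ERR letters in 2 (2.94%) and in 0.423%. At least 1 of these was in 30 subunit promoters (44.1%), compared with 12.2% of all promoters. NRF1 letters stood in the promoters of 4 of 12 higher genes (33.3%), 3 of 14 lower genes (21.4%) and 12 of 38 genes that were tested and not called (31.6%). By complex, they were in 8 of 31 promoters of complex I, 2 of 3 of complex II, 2 of 5 of complex III, 1 of 14 of complex IV and 6 of 15 of complex V. Such a match is a description of the letters and not of a bound site.

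The windows below are shown because the same NRF1 letters precede genes that rose, a gene that fell and a gene that was not called, with an example each of the ETS and ERR letters. Each window lies upstream of the RefSeq start that was used. It is written 5′ to 3′ on the strand of the gene, and has the matched letters in capitals. By the gene bounds of GENCODE M21, the window of *Atp5g2* and the ETS letters of *Atp5h* lie inside the gene. The second window of *Sdha* crosses the start of the gene by these bounds.
Sdhd, higher, NRF1 (chr9:50603900-50603948, minus strand): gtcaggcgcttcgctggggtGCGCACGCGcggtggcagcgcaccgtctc
Ndufa11, higher, NRF1 (chr17:56717682-56717730, plus strand): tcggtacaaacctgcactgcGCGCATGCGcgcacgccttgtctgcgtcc
Sdha, lower, first NRF1 match (chr13:74350310-74350358, minus strand): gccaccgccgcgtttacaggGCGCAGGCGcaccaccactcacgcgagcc
Sdha, lower, second NRF1 match (chr13:74350267-74350315, minus strand): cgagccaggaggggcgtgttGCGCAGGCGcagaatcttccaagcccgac
Atp5g2, not called, NRF1 (chr15:102671061-102671109, minus strand): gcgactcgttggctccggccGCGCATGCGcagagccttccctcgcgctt
Atp5h, not called, ETS on the other strand (chr11:115419931-115419978, minus strand): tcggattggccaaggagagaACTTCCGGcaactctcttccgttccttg
Atp5g3, not called, ERR on the other strand (chr2:73911350-73911398, minus strand): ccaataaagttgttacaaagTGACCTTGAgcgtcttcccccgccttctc
*Sdha* and *Sdhd*, subunits of the same complex that were called in opposite directions, thus both carry the NRF1 letters upstream of the RefSeq start used, *Sdha* at more than 1 place.

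Of 10 genes listed for the transcription of OXPHOS subunits, all of them regulators of nuclear promoters except *Tfam*, 6 were higher and 3 were lower (9 of 10 called, against 58.0% of all loci), with a median log2 fold change of 0.36. Without the second Scr or the first Yme1l siRNA library, 1 was lower. *Ppargc1a*, the coactivator PGC-1α, stood at 7.48, 8.65 and 10.5 CPM in Scr and at 18.8, 19.8 and 19.1 CPM in Yme1l siRNA libraries (1.12 ± 0.13, adjusted p = 1.43e-04). *Pprc1*, a related coactivator, was at 91.2, 84.7 and 70.0 CPM and at 137, 130 and 126 CPM (0.67 ± 0.10, adjusted p = 6.20e-04). Both rose without overlap, as did *Ppargc1b* (1.13), *Nrf1* (0.36), *Gabpb1* (0.37) and *Gabpb2* (0.35). *Gabpa* (-0.53), *Esrra* (-0.37) and *Yy1* (-0.23) were lower, and *Tfam*, which binds mtDNA and activates its transcription, was not called (0.16 ± 0.08, adjusted p = 0.135).

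Assembly factors build the complexes and are not part of them. For complex I, 7 of 17 tested were higher and 3 lower (58.8% called, near the 58.0% of all loci). *Ndufaf6* was at 5.71, 5.32 and 5.40 CPM in Scr and at 10.8, 11.1 and 10.6 CPM in Yme1l siRNA libraries (0.98 ± 0.10, adjusted p = 1.01e-04). *Ndufaf7* was at 30.3, 33.8 and 32.3 CPM and at 20.2, 17.8 and 21.7 CPM (-0.69 ± 0.09, adjusted p = 3.34e-04), and *Tmem126a* rose (0.54 ± 0.07, adjusted p = 2.91e-04). *Ndufaf2*, which holds the place of *Ndufa12* during assembly, and *Ndufa12* were both higher, by 0.34 and 0.64 on the log2 scale. For complex II, *Sdhaf4* (-0.82), *Sdhaf1* (-0.49) and *Sdhaf2* (-0.47) fell, and *Sdhaf3* was not called (0.44 ± 0.19, adjusted p = 0.0727). For complex III, *Uqcc3* (-0.84) and *Uqcc1* (-0.46) fell and *Uqcc2* rose (0.27), while *Bcs1l* (-0.01), *Ttc19* (0.04) and *Lyrm7* (-0.39) were not called.

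For complex IV, 6 of 21 tested assembly factors were higher and 8 lower (66.7% called, against 58.0% of all loci). *Cmc1*, which binds the early COX1 intermediate, was at 15.9, 14.7 and 13.4 CPM in Scr and at 5.75, 5.50 and 5.43 CPM in Yme1l siRNA libraries (-1.40 ± 0.11, adjusted p = 2.46e-05). *Cox18*, an insertase for COX2, was at 15.7, 14.7 and 13.2 CPM and at 33.0, 34.6 and 27.3 CPM (1.12 ± 0.11, adjusted p = 7.32e-05). Groups were far apart in both. For complex V, *Atpif1*, which inhibits ATP hydrolysis by the enzyme, fell from 60.2 to 67.3 CPM to 33.3 to 37.2 CPM (-0.88 ± 0.08, adjusted p = 3.63e-05). *Atpaf1* fell by 0.42 on the log2 scale and *Atpaf2* rose by 0.29, whereas *Tmem70* (0.02) and *Fmc1* (0.40 ± 0.17, adjusted p = 0.0707) were not called. Among genes of cytochrome c and coenzyme Q synthesis, 6 of 14 were higher and 4 lower (71.4% called, against 58.0% of all loci). The largest of these changes were *Coq8a* (-1.83 ± 0.13, adjusted p = 1.56e-05) and *Pdss1* (1.07 ± 0.09, adjusted p = 3.00e-05), and *Cycs* was not called (0.20 ± 0.16, adjusted p = 0.315).

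**Figure D5:**
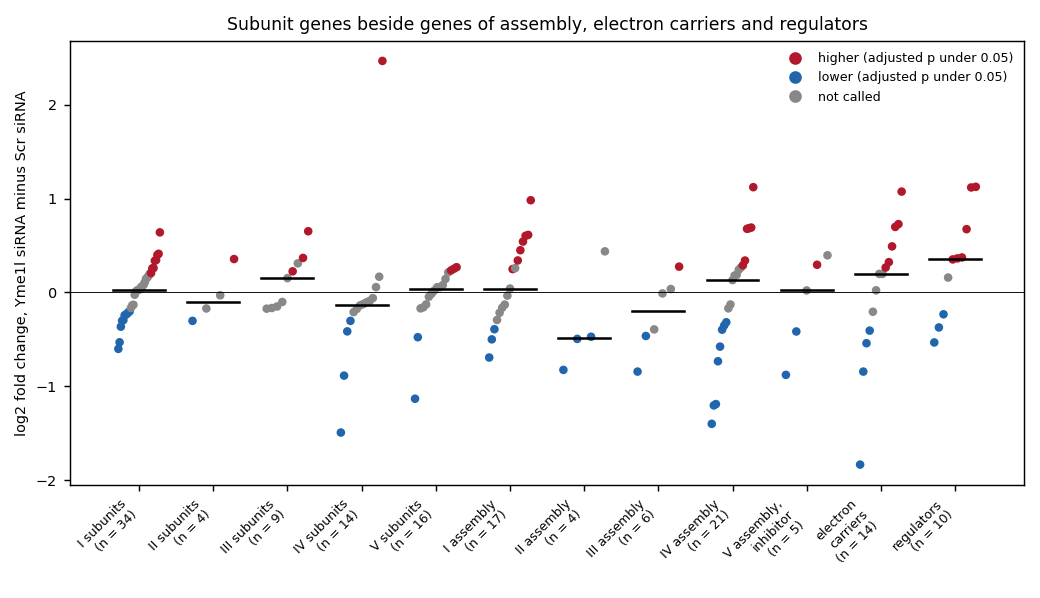
Log2 fold change (y axis, Yme1l siRNA minus Scr siRNA) of every tested subunit gene by complex and of genes for assembly factors, electron carriers and regulators, with a black line at each median. Subunit genes range from -1.49 to 2.47, with the low transcripts *Ndufa4l2* and *Cox6a2* at the ends, and the assembly factors of complex IV range from -1.40 to 1.12.

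The subunits encoded in mtDNA, which are built into complexes I, III, IV and V together with the nuclear ones, could be compared only in part. Of 10 loci tested, 2 were higher and 4 lower (60% called, near the 58.0% of all loci). *mt-Nd1* was higher (0.36 ± 0.11, adjusted p = 0.0205), but lost its call in 2 of the 6 fits with 5 libraries and with length and GC trends removed. *mt-Nd2* was higher with overlapping groups (0.33 ± 0.12, adjusted p = 0.0456). Lower were *mt-Cytb* (-0.49 ± 0.11, adjusted p = 0.00440), *mt-Co1* (-0.60 ± 0.14, adjusted p = 0.00543), *mt-Nd5* (-0.41 ± 0.10, adjusted p = 0.00630) and *mt-Co2*. *mt-Co2*, at 5322, 4388 and 184 CPM in Scr and 4.46 to 5.46 CPM in Yme1l siRNA libraries, differed widely within the Scr group, and 7 loci on chromosome 1 are near-identical copies of parts of mtDNA. Poly(A) selection was used, and how reads that match several places were counted is not given in the sources used here. Leaving all mtDNA loci and these copies out changed the count of subunit genes in neither direction (16 higher, 17 lower). Of subunits whose names the rule does not match, *Usmg5*, a small subunit of complex V, was lower (-0.25 ± 0.07, adjusted p = 0.0184), while *Ndufab1* (0.15 ± 0.07, adjusted p = 0.0734) and *2010107E04Rik* (-0.04 ± 0.08, adjusted p = 0.660) were not called.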

How the data were processed

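Poly(A)-selected RNA of 6 MEF libraries was sequenced from both ends after stranded library preparation. Per the labels, the authors' processing named HISAT2 2.0.4, StringTie 1.3.3 and Cuffdiff 2.2.1 on GRCm38, and the counting program is not given in the sources used here. The authors deposited raw counts per locus, without normalization. Their second table holds group FPKM values, fold changes, test statistics and p-values of their own comparison and was not used. All 6 count columns were mapped to a sample by name.

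The groups were compared with edgeR 4.0.16 (R 4.3.3), using TMM factors, its quasi-likelihood test and no covariate. The filter was filterByExpr (minimum count 10, minimum total 15). Benjamini-Hochberg adjustment ran over the 14499 loci tested, with a threshold of 0.05. The SE of a log2 fold change was obtained from its F statistic. CPM are relative to the TMM-scaled library size. The biological coefficient of variation was 0.131, which with 3 libraries per group limits the precision. By the methods, n in MEF experiments counts independent cultures, and the p-values measure the spread between these. Within groups, no pair of libraries was equal within counting noise (chi-square per degree of freedom 9.99 to 73.8). DESeq2 1.42.0, limma-voom 3.58.1, other scale factors, filters and thresholds, a replicate block, leaving out each library, and corrections for length and GC content were alternatives. The addition of copies' counts was chosen after seeing the data. Fits were also run on simulated counts in which only a small part of the loci was changed. As most loci were called in the real data, that run cannot tell how scaling or error rates behave here.

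Gene positions, lengths and overlaps came from GENCODE M21 (GRCm38), promoters from RefSeq (GRCm38.p6), and copies (at least 150 aligned bases, 95% identity) from BLAST 2.17.0. The genes named in full were the 5 largest rises and falls among called subunits, the 2 smallest adjusted p per complex and direction, core subunits, paralog groups, and the 2 smallest adjusted p of each further list with all members of lists of up to 6; other genes were named in passing, and 1 tested core subunit is not reported here. The subunits and lists were chosen with earlier results of these data known.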

Additional observations from a re-analysis of the deposited data

How the results depend on the processing

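Of the 77 tested subunit genes, 32 changed their call in at least 1 of 16 other fits at the same threshold, 13 of them called in the reported fit and 19 not, and 0 changed direction while called in both. The reported comparison gave 16 OXPHOS subunit genes higher, 17 lower and a median log2 fold change of -0.01. With length and GC trends removed, 14 were higher and 27 lower (53.2% called, against 58.4% of all loci), with a median of -0.11. At an adjusted p under 0.01, 12 were higher and 8 lower (26% called, against 42.6% of all loci). With one library left out at a time, 12 to 15 were higher and 8 to 18 lower, with medians from -0.044 to 0.029, and the fits without the second Scr library or without the first Yme1l siRNA library each gave 8 lower. Fewer loci were then called throughout (48.7% and 48.0% of those tested in these fits). When loci under a mean of 50 counts were left out, 20 were higher and 14 lower (45.9% called, against 62.6% of all loci). With upper-quartile factors, 18 were higher and 15 lower (42.9% called, against 57.7% of all loci). Yme1l1 stayed lower in every alternative, between -2.64 and -2.15 without a library. Between libraries of the same replicate number, deviations from the group means correlated at 0.041, 0.116 and 0.192. Libraries with different numbers were not compared in this way, so these values cannot tell whether the replicate numbers pair the samples. With the replicate block, 17 were higher and 20 lower (48.1% called, against 59.9% of all loci). Summed over the lists for assembly factors, carriers and regulators, 27 genes were higher and 25 lower. By list, 50% (complex III factors) to 90% (regulators) of the genes tested were called, against 58.0% of all loci. The summed counts stayed within 1.5 times of 27 and 25 under every alternative run on them. Single lists moved more: the count of regulators that were lower went from 3 to 1 in 3 alternatives, the count of higher complex V factors from 1 to 0 or 2 in 6, of higher complex II factors from 0 to 1 in 3 and of higher complex III factors from 1 to 0 in 2. With 3 libraries per group and a median SE of 0.08 for subunit genes, changes near 0.20 on the log2 scale lay close to the threshold.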
